A study of Mus musculus with 5 samples.

Results

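The 94 array rows described here are the probe sets whose listed genes include a histone gene, out of 28853 rows in the expression table of normal livers and liver tumours of mice. They were chosen by a rule on symbols that takes no measured values, though earlier results of these data were known when it was set. A row was taken when any of its listed symbols matched the histone gene names (Hist, H1f, H2a, H2b, H3c, H3f, H4c or H4f). Rows with a histocompatibility (H2-) gene were not taken. Of these rows, 47 list 1 symbol and 47 list several, and together they carry 98 distinct symbols that match. By the genes they list, 49 rows are replicative, 39 are of variants and 6 list both kinds. The variant rows divide into 13 of variants made in somatic cells and 26 of variants made in germ cells.

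Total RNA was labelled from 5 livers of male mice of about 10 months kept on regular food, 1 array a mouse. The 2 control livers were normal tissue of Hdac3FL/+AlbCre+ mice, and the 3 null samples were tumour tissue of Hdac3FL/-AlbCre+ mice. All 5 mice thus carried a floxed Hdac3 allele and the Cre recombinase driven by the albumin promoter, which acts in hepatocytes. The second allele was wild type in the controls and deleted in the null mice, and no null liver without a tumour is among the samples, so the genotype and the tumour tissue cannot be told apart.

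Nucleosomes wrap DNA around a core of the histones H2A, H2B, H3 and H4, and linker histone H1 binds where the DNA enters and leaves. Replicative histone genes lie in clusters, have no introns, are transcribed mainly in S phase and give messenger RNAs that end in a stem-loop rather than a poly(A) tail. Variant genes lie apart, mostly give polyadenylated messenger RNAs and are expressed outside S phase too; some serve only the packaging of chromatin in sperm or eggs. Hdac3 is a histone deacetylase that acts within the NCoR and SMRT corepressor complexes, and the study asked what its loss does to chromatin in the liver.

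The 250 bases before the start of 4 member genes are printed as examples of their promoters. H1f5 had the highest difference among the replicative rows, H3c2 and H4c4 belong to the H3 and H4 families compared below, and H2az2 is the variant that fell. The sequences are RefSeq's on GRCm38.p6, at chr13:21780626-21780875 on the minus strand for H1f5, chr13:23752095-23752344 on the plus strand for H3c2, chr13:23581318-23581567 on the plus strand for H4c4 and chr11:6444444-6444693 on the minus strand for H2az2. Capitals mark CCAAT on either strand (ATTGG on the other), TATAAA, ATTTGCAT and AAACACAA.
H1f5: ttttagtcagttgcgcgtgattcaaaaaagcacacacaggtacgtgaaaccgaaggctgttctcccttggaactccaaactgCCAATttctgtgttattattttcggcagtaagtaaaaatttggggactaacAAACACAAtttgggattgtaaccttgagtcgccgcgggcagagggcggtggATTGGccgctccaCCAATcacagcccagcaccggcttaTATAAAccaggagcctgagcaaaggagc
H3c2: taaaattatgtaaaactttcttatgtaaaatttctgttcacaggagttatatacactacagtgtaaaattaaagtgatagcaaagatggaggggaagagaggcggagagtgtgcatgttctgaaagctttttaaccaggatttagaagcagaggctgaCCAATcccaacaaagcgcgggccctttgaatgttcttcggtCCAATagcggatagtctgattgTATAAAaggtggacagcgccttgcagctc
H4c4: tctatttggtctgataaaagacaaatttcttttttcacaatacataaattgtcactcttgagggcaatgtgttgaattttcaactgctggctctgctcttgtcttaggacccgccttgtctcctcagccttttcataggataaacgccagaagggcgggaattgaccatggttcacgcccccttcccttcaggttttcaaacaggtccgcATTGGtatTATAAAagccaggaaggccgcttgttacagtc
H2az2: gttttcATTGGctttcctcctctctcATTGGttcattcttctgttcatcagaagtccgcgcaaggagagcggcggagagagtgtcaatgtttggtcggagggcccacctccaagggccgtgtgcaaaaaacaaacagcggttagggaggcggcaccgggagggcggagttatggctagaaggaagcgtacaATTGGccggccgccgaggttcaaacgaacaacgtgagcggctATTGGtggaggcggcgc

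The 3 replicative promoters printed hold TATAAA at 28, 29 and 32 bases before the start in H1f5, H3c2 and H4c4, while H2az2 has 4 matches to CCAAT and none to TATAAA. H1f5 also holds AAACACAA, the H1 box, 117 bases before the start. Promoters were found for 90 of the 98 matching symbols. Among 59 windows of replicative genes, 81.4% hold CCAAT and 45.8% hold TATAAA, against 33.8% and 12.4% of all 32851 windows of this length. Of the 6 windows of somatic variants, 83.3% hold the first of these motifs and 16.7% the second, and of the 26 windows of germ cell variants 30.8% and 15.4% do. Not every replicative gene holds the second: H1f2 has no match to it. CCAAT stands in 5 of 5 H1, 17 of 17 H2A and 15 of 15 H2B windows, in 8 of 10 of H3 and in 3 of 12 of H4. The octamer ATTTGCAT stands in 6 of the H2A and 6 of the H2B windows and in none of the H1, H3 or H4 windows, against 1.6% of all windows, and AAACACAA in 3 of the 5 H1 windows, against 1.67%. These matches describe letters in the sequence and were searched on both strands; no marked pair overlaps in the printed windows.

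Rows were compared between the 3 tumours and the 2 control livers with limma, fitted over all 28853 rows with Benjamini-Hochberg adjustment over that table and called at an adjusted p under 0.05. Values are log2 intensities as deposited, and a difference is the tumour mean minus the control mean. Of all rows, 8.53% were called, 4.56% higher in the tumours and 3.97% lower. Of the 94 histone rows, 0 were called higher and 1, the variant H2az2, was called lower; at an unadjusted p under 0.05, 13 were higher and 4 were lower, against 11.9% and 11.5% of the table. All 3 tumours lay above both controls in 19 histone rows and below both in 8, against 20.0% and 22.3% of all rows.

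The targeted gene was checked first. Hdac3 (10458461) stood at 8.21 and 8.37 in the controls and at 6.78, 6.57 and 6.65 in the tumours, and fell by 1.62 (SE 0.13, limma adjusted p = 0.00311). The row was no longer called without control 1 (-1.71, adjusted p = 0.0525) or without control 2 (-1.54, adjusted p = 0.0648), where 138 and 108 rows of the whole table were called. The medians of the 5 arrays lay between 5.66 and 5.77. The labels call the arrays biological replicates and say nothing further of how the mice were related.

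The replicative rows had a median difference of 0.20 and the variant rows one of -0.04, beside -0.02 over the whole table. Of the 49 replicative rows, 0 were called; 12 were higher and 2 lower at an unadjusted p under 0.05, 13 had all tumours above both controls and 5 had all below. Of the 39 variant rows, 1 was called lower, 1 was higher and 2 lower at an unadjusted p under 0.05, 4 had all tumours above and 3 had all below. The replicative median and the counts of higher rows depended on a single group of rows. Without the 10 rows that list 12 H3 genes together, the other 39 replicative rows had a median of 0.03. Of these 39 rows, 2 were higher and 2 lower at an unadjusted p under 0.05, against 11.9% and 11.5% of all rows. All tumours lay above both controls in 3 of them and below both in 5, against 20.0% and 22.3% of all rows. The replicative rows that name 1 gene (28 rows) had a median of -0.02, and those that name several (21 rows) one of 0.37. The 10 H3 rows are among these 21. In bulk tissue, fewer cells of a type and less RNA per cell cannot be told apart.

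**Figure D1:**
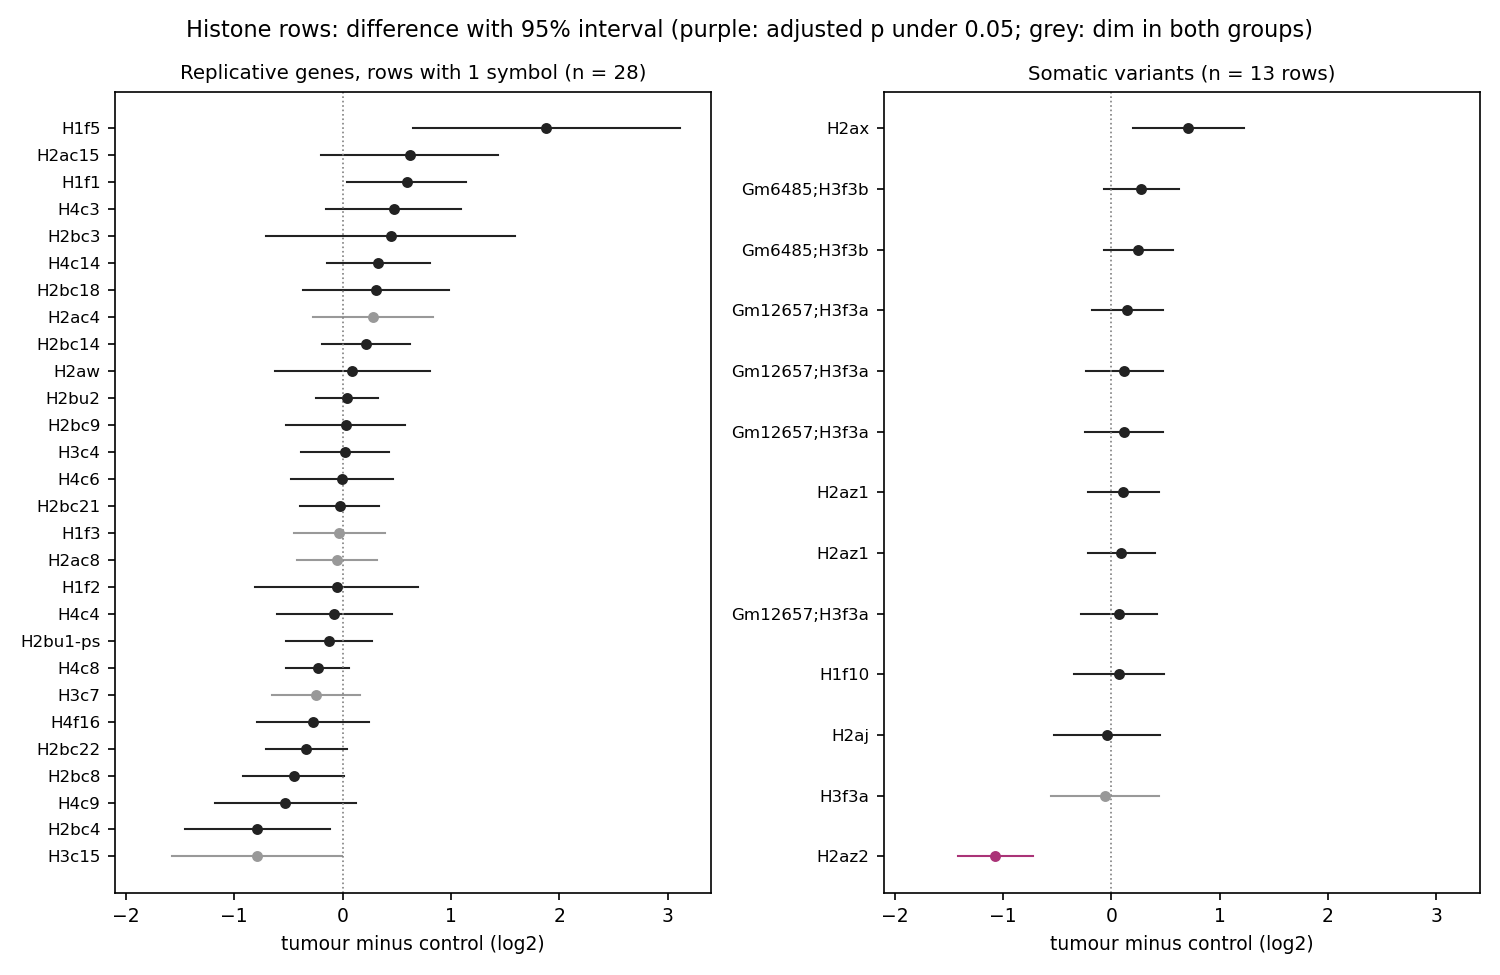
Difference (log2, tumour mean minus control mean) with its 95% interval for the 28 replicative rows that name 1 gene (left) and the 13 somatic variant rows (right), each ordered by size. Purple marks the row that was called, H2az2 at -1.07, and grey marks rows that were dim in both groups; H1f5 at 1.88 stands highest, and most other intervals include 0.

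Histone H3 forms the core tetramer with H4, and its replicative genes encode nearly the same protein. The 10 H3 rows each list the same genes, H3c1, H3c2, H3c3, H3c4, H3c6, H3c7, H3c8, H3c10, H3c11, H3c13, H3c14 and H3c15, so they cannot be read as 12 separate genes or as 10 separate measurements. Their median was 8.07 in control 1 and 7.82 in control 2, and 8.55, 9.15 and 9.87 in tumours 1, 2 and 3. The rows ran from 7.73 to 8.11 in the controls and from 8.29 to 10.03 in the tumours. All tumours lay above both controls in each of the 10 rows, against 20.0% of all rows, and tumour 3 was the highest in each. The differences were 1.0 to 1.33 (median 1.27, SE 0.36 to 0.40), and 9 of the 10 rows were at least 2-fold higher in the tumours, against 4.55% of all rows.

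None of the 10 H3 rows was called: their limma adjusted p-values were 0.0834 to 0.169, with unadjusted p-values of 0.0103 to 0.0335. The spread lay mainly among the tumours, whose median rows stood 0.61, 1.23 and 1.97 above the control mean. Without tumour 1, the tumour nearest to the controls, all 10 rows were called (median difference 1.60, adjusted p 0.0265 to 0.0452), and without tumour 3, 1 row was called (median 0.92, adjusted p 0.0436 to 0.154). Without either control or without tumour 2, 0 rows were called.

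The 3 rows that name a single H3 gene stood lower and did not follow the shared rows. H3c4 was measured at 5.14 and 4.72 in the controls and at 5.01, 4.83 and 5.03 in the tumours, a difference of 0.02 (95% interval -0.38 to 0.43). H3c7 (difference -0.25) and H3c15 (difference -0.79, adjusted p = 0.209) were dim in both groups, that is, the mean of either group was below 4.35, the lower quartile of the means of all rows. For these genes the single rows hold little signal, and the 10 shared rows do not say which H3 gene gave their values.

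**Figure D2:**
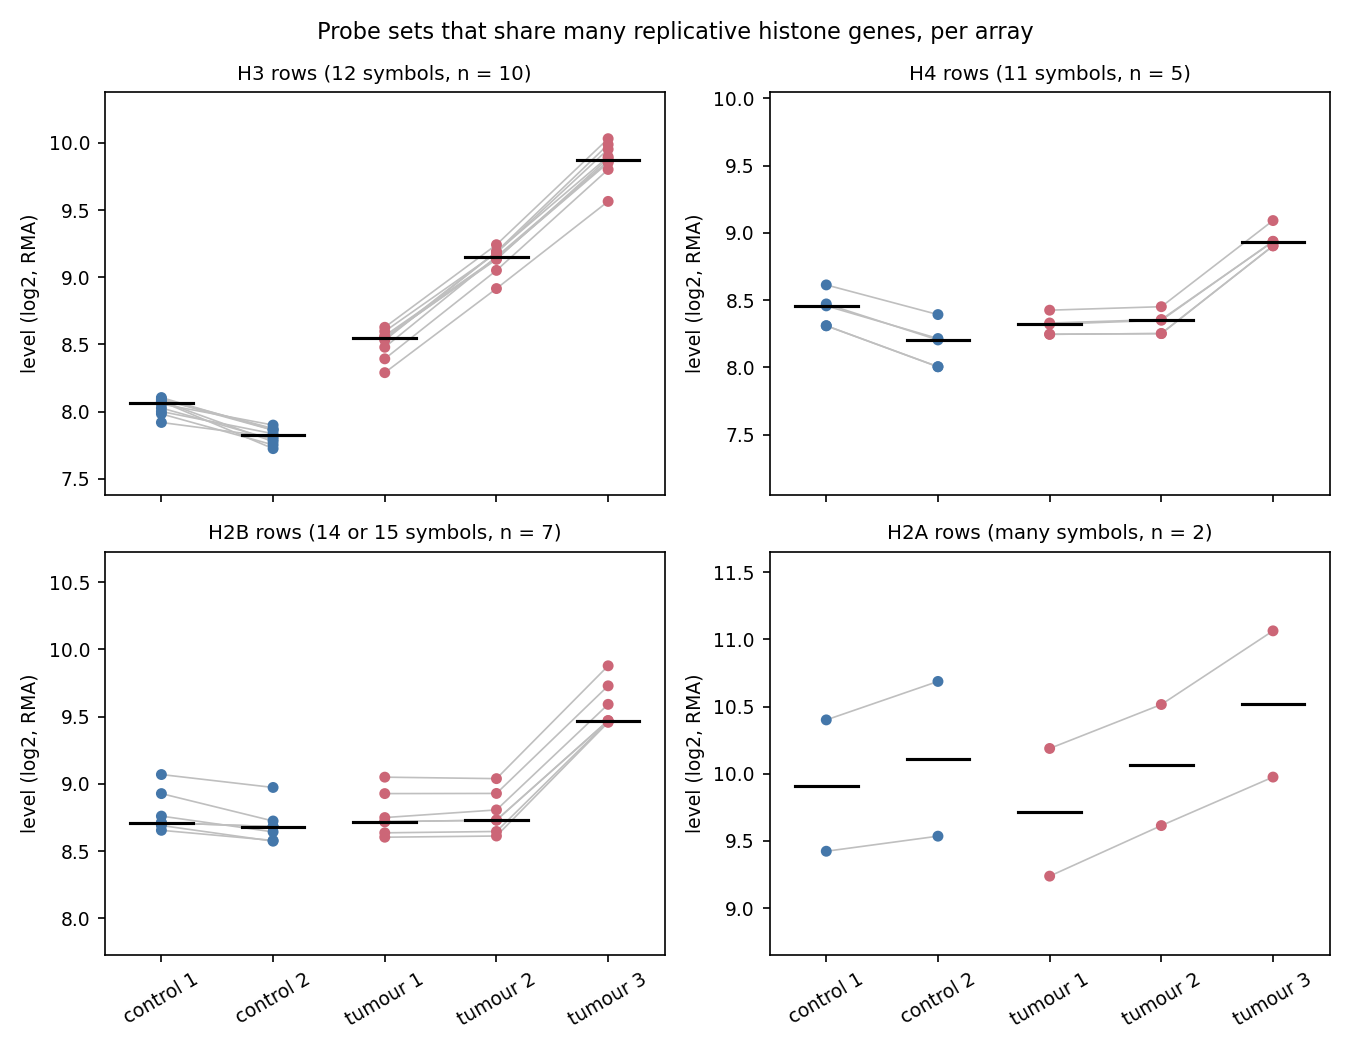
Deposited log2 intensity of the rows that list many replicative genes of a family (H3, H4, H2B, H2A), by array. Each point is 1 row in 1 array, black bars are the median of the rows, and grey lines only join the values of a row within a group and carry no order; the H3 rows lie above the controls in all 3 tumours, and the H4 and H2B medians stand 0.60 and 0.85 above the control mean in tumour 3.

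Histone H4, the partner of H3, has 5 rows that list 11 genes (H4c1, H4c2, H4c3, H4c4, H4c6, H4c8, H4c9, H4c11, H4c12, H4c17 and H4c18). Their median was 8.46 and 8.20 in the controls and 8.32, 8.35 and 8.93 in the tumours. Tumours 1 and 2 thus lay within the range of the controls, and tumour 3 lay above it. The differences were 0.15 to 0.31 (adjusted p 0.522 to 0.769), and the upper ends of their 95% intervals reached 0.90. Whether the H3 and H4 rows differ in their response was not tested.

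Among the rows that name 1 H4 gene, H4c3 had the highest difference, 0.47 (adjusted p = 0.344), with 4.77 and 4.85 in the controls and 4.80, 5.41 and 5.64 in the tumours. H4c9 had the lowest, -0.53 (adjusted p = 0.310), with 7.03 and 6.35 in the controls and 6.23, 5.83 and 6.44 in the tumours. The groups overlapped in both rows. H4c4, whose promoter is printed above, stood at 7.77 and 7.61 in the controls and at 7.33, 7.51 and 8.0 in the tumours, a difference of -0.08. The row of H4c11 and H4c17 was measured at 6.17 and 6.10 in the controls and at 5.63, 5.42 and 6.71 in the tumours. It was lower in tumours 1 and 2 and higher in tumour 3, and without tumour 3 it was called lower (-0.61, adjusted p = 0.0484).

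Histone H2B pairs with H2A at the outside of the core. The 7 rows that list 14 or 15 H2B genes (1 of them under the symbol H4bc24, in older naming Hist1h2br) had medians of 8.71 and 8.68 in the controls and of 8.72, 8.73 and 9.47 in the tumours. The differences were 0.26 to 0.37 (adjusted p 0.496 to 0.665), and tumour 3 alone stood well above the controls, by 0.85 against 0.02 and 0.03. Of these rows 4 also list H2bc1, the testis H2B gene, and were counted as mixed. All tumours lay above both controls in 3 of the 7 rows, against 20.0% of all rows, and 2 of these 3 rows hold the same values.

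The brightest H2B row that names 1 gene lay in the other direction. H2bc4 (10404053) stood at 10.67 and 10.85 in the controls and at 10.31, 9.44 and 10.16 in the tumours, a difference of -0.79 (SE 0.27, 95% interval -1.46 to -0.12, adjusted p = 0.150). All tumours lay below both controls, but the row did not pass the adjusted threshold under any alternative. H2bc8 (-0.45, adjusted p = 0.227) and H2bc22 (-0.33, adjusted p = 0.267) were also below the controls in every tumour. The other 7 rows of single H2B genes, 1 of them the pseudogene H2bu1-ps, overlapped between the groups, and over all 10 of these rows the median difference was 0.00146.

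For H2A, 2 rows list 19 or 20 genes, among them the variant H2ax and 1 H3 gene, H3c4. The first stood at 10.40 and 10.69 in the controls and at 10.19, 10.51 and 11.06 in the tumours, and the second at 9.42 and 9.54 against 9.24, 9.61 and 9.98. Both overlapped between the groups, with differences of 0.05 and 0.13. H2ac15 alone was measured at 6.82 and 7.09 in the controls and at 7.05, 7.49 and 8.20 in the tumours, a difference of 0.62 (adjusted p = 0.341). Tumour 3 was the highest array in each of these 3 rows.

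Linker histone H1 held the highest difference of all 94 rows, in a row that names a single gene. H1f5 (10408081) stood at 6.12 and 6.61 in the controls and at 7.27, 8.43 and 9.04 in the tumours. All tumours lay above both controls; the difference was 1.88 (SE 0.50, 95% interval 0.65 to 3.11), a 3.68-fold higher level on the linear scale, and the adjusted p was 0.0804. Without tumour 1 the row was called (2.37, adjusted p = 0.0120), and it was not called without any 1 of the other arrays. H1f1 was measured at 7.04 and 7.03 in the controls and at 7.24, 7.67 and 7.97 in the tumours, a difference of 0.59 (adjusted p = 0.184), again without overlap.

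The other H1 genes of the cluster stood apart from H1f5. H1f2 was measured at 7.05 and 7.16 in the controls and at 7.35, 6.43 and 7.38 in the tumours, with tumour 2 alone below the controls and a difference of -0.05 (95% interval -0.81 to 0.70). H1f3 was dim in both groups, and the row shared by H1f4 and H2bc6 had a difference of -0.05. The 95% intervals of H1f5 and H1f2 overlap at their ends, and the difference between these genes was not tested.

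Among the somatic variants, H2az2 was the single row called. H2az2 encodes a form of H2A.Z, the H2A variant placed near gene starts. Its row (10384145) stood at 9.04 and 8.74 in the controls and at 7.80, 7.92 and 7.75 in the tumours. It fell by 1.07 (SE 0.14, 95% interval -1.42 to -0.72, adjusted p = 0.0122), to 0.476 of the control level, and the tumours lay close together, with an SD of 0.0898. It was called under 12 of 14 alternatives, and was not called without control 1 (-0.92, adjusted p = 0.124) or without control 2 (-1.22, adjusted p = 0.0835).

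The second gene of the same variant showed no such difference. H2az1 has 2 rows, at 8.46 and 8.49 in the controls against 8.44, 8.59 and 8.67 in the tumours, and at 8.94 and 8.92 against 8.90, 9.02 and 9.19. Their differences were 0.09 and 0.11 (adjusted p = 0.742 and 0.708), with 95% intervals of -0.22 to 0.40 and -0.22 to 0.44. These intervals do not reach the interval of H2az2, although the difference between the genes itself was not tested.

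H2ax encodes the H2A variant that is phosphorylated at DNA breaks. It was measured at 6.62 and 6.34 in the controls and at 6.85, 7.29 and 7.43 in the tumours. The tumours lay above both controls, with a difference of 0.71 (SE 0.21, 95% interval 0.20 to 1.22, adjusted p = 0.101). Without tumour 1 the row was called (0.88, adjusted p = 0.0405).

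H3f3a and H3f3b encode the H3 replacement variant, which is deposited outside replication. The 2 rows of H3f3b, which also list Gm6485, stood at 10.27 and 10.12 in the controls against 10.50, 10.52 and 10.31 in the tumours, and at 9.86 and 9.78 against 10.16, 10.22 and 9.91. The tumours lay above the controls in both rows, with differences of 0.25 and 0.28 (adjusted p = 0.330 and 0.317). The 4 rows of H3f3a with Gm12657 had differences of 0.07 to 0.15 (adjusted p 0.595 to 0.833), and their intervals ended at or below 0.47. The row that names H3f3a alone was dim in both groups (-0.06). H2aj (-0.04) and H1f10 (0.07), a linker variant, overlapped between the groups.

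**Figure D3:**
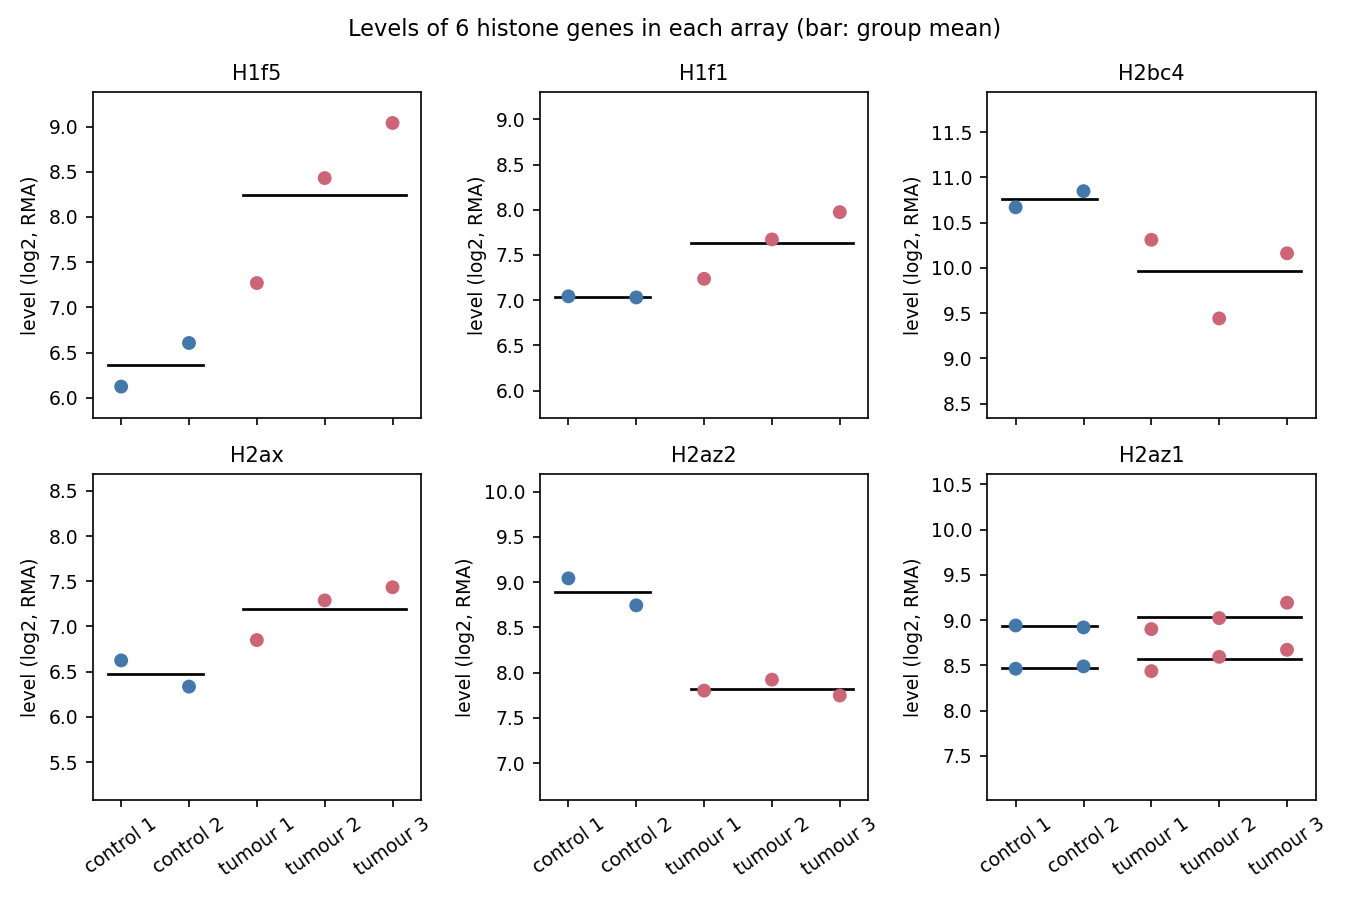
Deposited log2 intensity by array for rows that name single genes: H1f5, H1f1, H2bc4, H2ax, H2az2 and both rows of H2az1, with the bar at the group mean. The 3 tumours lie above both controls for H1f5, H1f1 and H2ax, below both for H2bc4 and H2az2, and overlap them for H2az1.

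The germ cell variants serve chromatin in testis and ovary. Their 26 rows ran from 3.58 to 6.71 over the 5 arrays, 4 of them were dim in both groups, and they had a median difference of -0.08; 0 were called, with 0 higher and 1 lower at an unadjusted p under 0.05. The 12 rows of the sperm gene family H2al1 lay between 3.93 and 5.43 in every array, with differences of -0.20 to 0.20, and tumour 2 was the lowest array in 11 of them. H2al2a was the row with the low unadjusted p, at 6.42 and 5.93 in the controls and 5.74, 5.74 and 5.61 in the tumours, a difference of -0.47 (adjusted p = 0.173). The testis linker histone H1f6 stood between 4.57 and 4.63 in all arrays, a difference of 0.03 (95% interval -0.24 to 0.30). The testis gene H2ac1 was measured at 6.23 and 6.04 in the controls and at 5.91, 6.22 and 6.71 in the tumours, with tumour 3 again the highest. The rows of H2bc1 (0.20), H2ab1 (0.13), H1f7 (-0.09) and H1f8 (-0.19), the oocyte linker histone, had small differences and overlapped between the groups, as did H2ap (-0.02), H2bfm (-0.03), H2al3 (-0.04), H2bl1 (0.05) and both rows of H2al2b with H2al2c (-0.07 each). Of 10 testis germ cell markers, 7 were dim in both groups, and 1 of these dim rows, Sycp3, was called lower (-0.72), but not without either control or without tumour 2.

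The machinery that makes and matures replicative histone RNA was given by 24 measured genes, of which 0 were called. At an unadjusted p under 0.05, 4 were higher and 0 lower, against 11.9% and 11.5% of all rows. The median difference was 0.13. Npat, the coactivator of replicative histone genes, stood at 5.33 and 5.56 in the controls and at 5.85, 5.88 and 5.90 in the tumours, a difference of 0.44 (adjusted p = 0.0964). Eri1, an exonuclease that acts on the stem-loop end, had a difference of 0.56 (adjusted p = 0.104), with all tumours above. The row taken for Slbp, whose protein binds the stem-loop, stood at 6.96 and 6.99 in the controls and at 6.88, 7.19 and 7.40 in the tumours. Its difference was 0.18 (adjusted p = 0.626). Casp8ap2, which is needed for histone RNA processing, had a difference of 0.10 (adjusted p = 0.851). Hinfp, an activator of H4 genes, had a difference of -0.58 (adjusted p = 0.228), with all tumours below, and without tumour 3 it was called lower.

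Of 27 histone chaperones and deposition factors, 1 rose and 1 fell, against 4.56% and 3.97% of all rows. Their median difference was 0.09. Chaf1b, a subunit of the CAF-1 complex that places new H3 and H4 on replicated DNA, stood at 5.24 and 5.20 in the controls and at 5.86, 6.29 and 6.58 in the tumours, and rose by 1.03 (adjusted p = 0.0450). Its partner Chaf1a had a difference of 0.77 (adjusted p = 0.0654). Rbbp4, which serves CAF-1 and several deacetylase complexes, fell by 0.69 (adjusted p = 0.0451), and Nap1l1, a chaperone of H2A and H2B, had a difference of 0.93 (adjusted p = 0.0520). Chaf1b and Rbbp4 were not called without either control or without tumour 2. Chaf1b was also not called with the array medians set equal, and Rbbp4 was also not called without tumour 1 or with quantile normalization repeated.

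Of 43 genes of S phase, when replicative histones are made, 9 rose and 1 fell, against 4.56% and 3.97% of all rows. Their median difference was 0.48. Mcm6, a subunit of the replicative helicase, stood at 5.92 and 5.55 in the controls and at 7.82, 8.21 and 8.95 in the tumours, and rose by 2.60 (adjusted p = 0.0113). Ccna2, the S phase cyclin, rose by 2.49 (adjusted p = 0.0263), Mcm3 by 1.82 (adjusted p = 0.0135) and Uhrf1, which maintains DNA methylation at replication forks, by 1.20 (adjusted p = 0.0175). The row taken for Tk1, thymidine kinase, fell by 0.67 (adjusted p = 0.0304). It was the brightest row that names Tk1 alone, and any other Tk1 row is not reported. Pcna, the sliding clamp, had a difference of 0.75 (adjusted p = 0.106). Rrm2, a subunit of ribonucleotide reductase, stood at 5.49 and 5.55 in the controls and at 6.29, 7.51 and 7.16 in the tumours, a difference of 1.47 (adjusted p = 0.0591). Without either control 0 of the 43 were called, without tumour 2 Mcm3 and Mcm6 were called, and without tumour 1 16 were called higher; Tk1 was called in neither of these last fits. The median S phase gene stood 0.13, 0.47 and 0.85 above the control mean in tumours 1, 2 and 3, and the median H3 row 0.61, 1.23 and 1.97; these are 3 tumours, and no relation between the measures was tested.

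**Figure D4:**
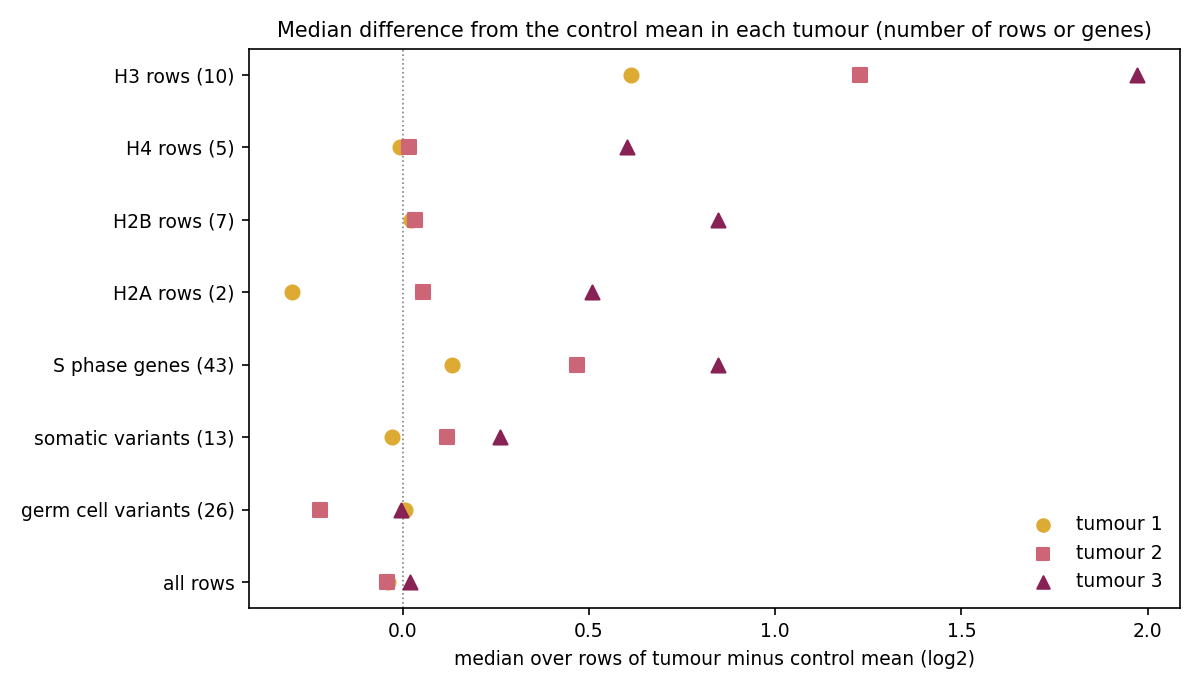
Median log2 difference from the control mean in each tumour for the H3, H4, H2B and H2A rows of many genes, the S phase genes, the somatic and the germ cell variants and all rows. The H3 median stands at 0.61, 1.23 and 1.97, the H4 median at -0.01, 0.02 and 0.60, and all rows stay near 0 in each tumour.

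Among 14 centromeric and other chromatin proteins outside the rule, 1 rose and 1 fell, against 4.56% and 3.97% of all rows. Cenpt, a histone-fold protein of the centromere, rose by 1.02 (adjusted p = 0.0132) and was not called without either control, and Hmgn5, a nucleosome-binding protein, fell by 2.12 (adjusted p = 0.00110) and was called without any single array. Cenpa, the centromeric H3, stood at 6.52 and 6.25 in the controls and at 6.66, 6.95 and 6.60 in the tumours, a difference of 0.35 (adjusted p = 0.274).

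Markers of liver cell types were counted in the same fit. Of all rows, 4.56% were called higher and 3.97% lower. At an unadjusted p under 0.05, 11.9% of all rows were higher and 11.5% lower. Of 18 macrophage markers 11 rose and 0 fell, and their summed level was 10.86 and 11.26 (log2) in the controls and 12.88 to 13.75 in the tumours. All tumours lay above both controls in 13 of the 18, against 20.0% of all rows. The others differed among the tumours: Vsig4 stood at 7.07 and 7.82 in the controls and at 9.84, 7.34 and 4.55 in the tumours. Clec4f, Cd5l, Timd4 and Marco were likewise highest in tumour 1 and below both controls in tumour 3. Of 17 B, T and NK cell markers 0 were called (5 higher and 0 lower at an unadjusted p under 0.05), 5 were dim in both groups, and the sum was 8.75 to 8.86 in the controls, 9.18 and 9.17 in tumours 1 and 2 and 10.38 in tumour 3, the tumour with the highest H3, H4 and H2B rows. Of 18 endothelial and stellate markers 2 rose (5 higher and 0 lower at an unadjusted p under 0.05). Of 14 erythroid and myeloid precursor markers 1, Tfrc, rose by 1.60, and at that unadjusted threshold 1 was higher and 2 were lower. The 2 lower genes, Alas2 (-3.20) and Klf1 (-0.88), were not called but lay below both controls in every tumour. Of 9 cholangiocyte markers 0 were called (4 higher and 1 lower at an unadjusted p under 0.05), and of 16 hepatocyte markers 3 fell. Without either control these lists held 0 calls, save 1 macrophage marker without control 2, and without tumour 2 there were 0 called hepatocyte markers. With quantile normalization repeated 1 hepatocyte marker, Apoh, was called lower, with array medians set equal or with a replicate block 2 were, and with the trend and robust options 4 were called lower and 1, Hpx, higher. The endothelial and stellate sum was 11.61 and 11.72 in the controls and 10.91 to 12.67 in the tumours, lowest in tumour 3. The erythroid and myeloid precursor sum was 10.59 and 10.53 against 9.93 to 10.40. That sum rests mostly on its brightest genes, Alas2 and Tfrc, which moved in opposite directions. The cholangiocyte sum was 9.81 in both controls against 9.55 to 9.97, and the hepatocyte sum lay between 15.99 and 16.28 in all 5 arrays. The part of these cells in the histone values was not tested.

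Some limits apply to every row. The platform annotation lists no more than 20 accessions a row, and 24 histone rows reach that number, so their gene lists may be incomplete. The 94 rows hold 88 distinct sets of values, since 11 rows repeat those of another row. With 2 arrays against 3, the smallest p an exact two-sided permutation test could give is 0.1, and the fit over all rows was used instead.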

How the data were processed

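The authors deposited 1 table of log2 intensities for 5 Affymetrix arrays, and the submitters' processing notes name GCOS and RMA, which background-corrects, quantile-normalizes and summarises probes into probe sets; array medians and the range of values fit a log2 scale, and the table was used as deposited. Per the labels' protocols the RNA was labelled with a WT Sense kit, which primes along the whole transcript. Quantile normalization sets the probe values of all arrays to 1 distribution before they are summarised, so a shift common to all genes would largely not show. The medians of the deposited arrays still differed, from 5.66 to 5.77.

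Rows were named through the platform annotation (21789 rows with 1 symbol, 1621 with several, 5443 with none). Genes of the lists were each taken from rows with 1 symbol, by the row with the highest mean. Other rows of a listed gene are not reported. Older histone names were matched through the RefSeq gene table of GRCm38.p6, which held 102 of 102 gene identifiers. The 3 tumours were compared with the 2 controls in limma 3.58.1 (R 4.3.3; lmFit and eBayes, 3 residual and 2.98 prior degrees of freedom) over all 28853 rows, with Benjamini-Hochberg adjustment and a threshold of 0.05. The script was tested on simulated data, in 10 runs with 200 changed rows each. The fit called 0% of changes of 0.5 (log2), 43% of changes of 1 and 97.05% of changes of 2. Intervals are 95% intervals of the difference. Figures were drawn with matplotlib 3.10.9. The number of arrays limits the precision. Each p-value sets a difference against a spread estimated partly from that row in these mice and partly from all rows.

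The rule for rows named in the text took called rows, variant rows with a mean above the lower quartile of the table, the rows of at least 3 histone symbols (by range), the 8 brightest replicative rows, the 8 highest and the 4 lowest differences, up to 4 members of each gene list with the smallest p, and Slbp, Npat, Casp8ap2, Cenpa, Pcna, Rrm2, Mcm6, Chaf1b and Hdac3; Hinfp, dim variant rows and other rows of single genes were named after their values were seen, to complete a family. The members and lists were chosen with earlier results of these data known. There were 14 alternatives: scaling, filters, row selection, fit options, a replicate block and leaving out each array. They reuse the same arrays and are not separate checks. Tumour 3 is the only array of its replicate number, so the block gives the same differences as leaving tumour 3 out. No scan date or batch label was used here.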

Additional observations from a re-analysis of the deposited data

How the results depend on the processing

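The count of histone rows called higher was 0 in the fit reported above, 4 with array weights (3 of the 10 H3 rows and H1f5; tumour 3 had the lowest weight, 0.45), 1 with the replicate number as a block (H1f5) and 0 to 12 when 1 array was left out. Among the replicative rows these counts were 4 with array weights, 1 with the block and 0 to 11 when 1 array was left out. The 12 rows without tumour 1 were the 10 H3 rows, H1f5 and H2ax, and without tumour 3 there was 1 H3 row. Rows called lower numbered 0 to 2 when 1 array was left out (0 without either control, and H2az2 with the row of H4c11 and H4c17 without tumour 3), with 0 to 1 among the replicative rows. Variant rows called higher and called lower numbered 0 to 1 each. The median of the variant rows was -0.04, and 0.11 over the 20 left when the dimmest 40% of rows were removed. Hdac3 ranged from -1.71 to -1.54 without either control. H2az2 was -0.92 without control 1 and -1.22 without control 2. The cause was not tested; leaving out a control leaves 1 array in that group, taken to vary like the tumours. The reported fit did not use the replicate numbers to pair the arrays. Deviations from the group means correlated at -0.015 and 0.012 over the 2 shared numbers. With 2 controls, the deviations of one are the other's with the sign turned, so these values cannot say whether arrays were paired. Over the 50 histone rows named by the rule, 587 of 634 values kept their direction and their side of the threshold, 2 were called only in the reported fit, 15 were called only in the alternative, 30 changed sign while called in neither fit, and 0 reversed a call. Setting all array medians equal moved the median of all rows from -0.02 to -0.08. The small number of arrays limits the precision, and a row that was not called may still have changed.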

Other observations

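The macroH2A genes, whose symbols fall outside the choice of rows, were looked at after their values had been seen. Macroh2a1 was measured at 9.03 and 9.0 in the controls and at 8.93, 8.49 and 9.01 in the tumours, a difference of -0.21 (limma adjusted p = 0.576). Only tumour 2 stood well below the controls. Macroh2a2 had a difference of 0.09 (adjusted p = 0.887).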
